A study of Mus musculus with 2 samples.

Results

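The genes described here are 9 genes of retinoid metabolism and retinoic acid reception (Dhrs3, Dhrs9, Rdh10, Rdh11, Aldh1a1, Crabp2, Rara, Rarb and Rarg), taken by name from the 52636 genes of the deposited count table. RNA was sequenced from 2 puromycin-selected derivatives of Hepa1-6, a hepatocellular carcinoma line from C57bl/6 mice. The IRF8-OE line had been infected for 24 h with a lentivirus that overexpresses the transcription factor IRF8, and the vector line with the control lentivirus. Both viruses carried GFP and a puromycin resistance gene, and both lines were selected with 2 µg/ml puromycin. There was 1 library per line, of 20042660 counted reads for IRF8-OE and 18118017 for vector, and the labels do not say whether a line grew from 1 clone. Without replicates no difference below could be tested or given a p-value, and the intervals reflect counting error alone. The genes were chosen by their role together with the ratios of these same counts, IRF8-OE over vector, among them the low ratio of Dhrs9, so their differences are descriptions.

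Retinoids are vitamin A and its derivatives. Retinol is oxidised reversibly to retinal by retinol dehydrogenases, retinal is oxidised irreversibly to retinoic acid by retinaldehyde dehydrogenases, and CYP26 enzymes clear retinoic acid. Retinoic acid binds the nuclear receptors RARα, RARβ and RARγ, which pair with retinoid X receptors on response elements in DNA and act on target genes, Rarb being a classic target itself. The liver takes up dietary vitamin A, hepatocytes release it on retinol-binding protein, and hepatic stellate cells store it as esters.

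Sequences upstream of the genes are shown for Dhrs9, the member with the largest difference between the libraries, for Aldh1a1, the member with the highest level, and for Rarb, which had 0 counts. Each runs 5′ to 3′ on the strand of the gene, from 250 bases before to 50 bases after the RefSeq start (RefSeq, GRCm38.p6), and capitals mark motif matches. The Dhrs9 window is chr2:69380212-69380511 on the plus strand, the Aldh1a1 window chr19:20492333-20492632 on the plus strand and the Rarb window chr14:16575427-16575726 on the minus strand.
Dhrs9: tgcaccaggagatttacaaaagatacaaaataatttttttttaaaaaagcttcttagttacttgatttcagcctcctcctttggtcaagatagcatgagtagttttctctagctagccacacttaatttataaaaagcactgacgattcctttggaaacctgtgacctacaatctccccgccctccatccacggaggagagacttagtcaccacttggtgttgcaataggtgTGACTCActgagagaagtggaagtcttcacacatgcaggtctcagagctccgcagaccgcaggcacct
Aldh1a1: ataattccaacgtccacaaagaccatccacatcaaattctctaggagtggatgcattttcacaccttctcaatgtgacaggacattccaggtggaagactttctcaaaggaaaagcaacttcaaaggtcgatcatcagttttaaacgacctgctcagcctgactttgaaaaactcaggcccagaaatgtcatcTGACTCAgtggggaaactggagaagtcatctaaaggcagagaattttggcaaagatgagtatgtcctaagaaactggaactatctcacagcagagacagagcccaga
Rarb: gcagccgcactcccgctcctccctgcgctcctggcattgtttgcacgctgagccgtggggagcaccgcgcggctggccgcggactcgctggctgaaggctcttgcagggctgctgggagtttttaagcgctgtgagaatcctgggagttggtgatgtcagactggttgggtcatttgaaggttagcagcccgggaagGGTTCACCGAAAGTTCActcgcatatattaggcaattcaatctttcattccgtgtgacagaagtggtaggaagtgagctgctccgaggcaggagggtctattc

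In the Rarb window the capitals are a DR5 element, the retinoic acid response element made of a pair of hexamers in the same direction, 5 bases apart, each being AGGTCA or a variant with G at the first base, T at the third, or both, at positions -53 to -37 from the start. A DR5 match was present in 0.0974% of the 32851 RefSeq windows of this length, and Rarb was the only member with one among the 7 members that had a window. In the Dhrs9 and Aldh1a1 windows the capitals are an AP-1 motif (TGAGTCA, read here on the opposite strand), at positions -18 to -12 in Dhrs9 and -57 to -51 in Aldh1a1. The AP-1 motif was found in 5.2% of all windows. The IRF motif (GAAA, then any 2 bases, then GAAA) occurred once in a Rarg window and at 1 site shared by overlapping Dhrs3 windows. The windows of Dhrs9 and Rara held no IRF match. Of all windows 3.44% held at least 1 match. Elements with hexamers 1 or 2 bases apart (DR1, DR2), the ETS-IRF motif (GGAA, then any 2 bases, then GAAA) and the CRE motif TGACGTCA were in 0 of the 15 windows of the members, and were in 0.222%, 0.268%, 2.72% and 1.79% of all windows. Both strands were searched, no matches of different motifs overlapped in the members' windows, and 9 of their 15 windows held no match. The other window of Aldh1a1 was among those without a match. Whether any of these motifs acts in these cells was not tested.

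Across the 9 genes, Dhrs9 stood far below its vector level in the IRF8-OE library, Rara was lower by a smaller amount, and the other 6 counted genes lay within 1.5-fold. A gene is called higher or lower here when its CPM, the count scaled by library size and TMM factor, differed at least 2-fold and the exact 95% interval of the ratio, IRF8-OE over vector, excluded 1. A gene counted as measured when it averaged 1 CPM or more over the libraries, which held for 7 of the 9. Of these 7, Dhrs9 was called lower and 0 were called higher, against 7.91% of the 12468 measured genes called in either direction, 3.64% lower and 4.27% higher. Irrespective of size, the interval lay below 1 for 6 of the 7 and held 1 for Rdh11, while over all measured genes the interval excluded 1 for 63.8%, lying below it for 32.7% and above it for 31.1%. The median log2 ratio of the 7 was -0.26, beside 0.01 over all measured genes. Under scaling by total counts, which moved the median of all genes to 0.13, that of the 7 was -0.13, with 4 intervals below 1 and 1, that of Aldh1a1, above.

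**Figure D1:**
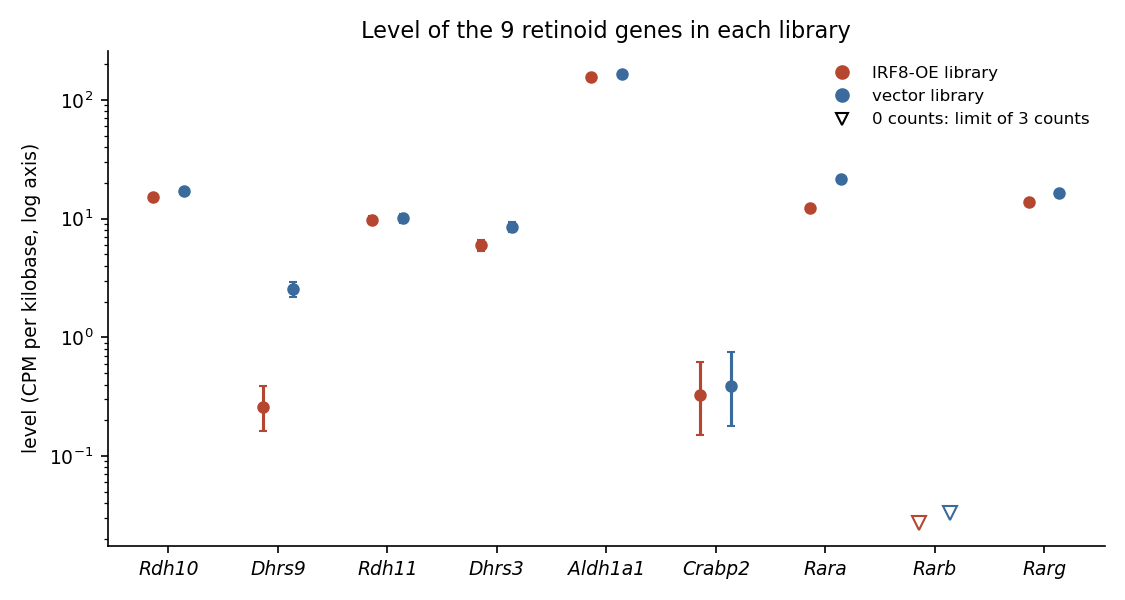
Level of each gene in CPM per kilobase of gene length (log axis) in the IRF8-OE library and the vector library, with exact 95% Poisson intervals for counting error, and open triangles at the limit of 3 counts for genes with 0 counts. Aldh1a1 lies at 155 and 165, Dhrs9 at 0.257 and 2.56, and Rarb had 0 counts in both libraries.

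Levels per length set Aldh1a1 apart from the other 8 genes in both libraries. In CPM per kilobase, Aldh1a1 was at 155 in the IRF8-OE library and 165 in the vector library, and Rdh10 at 15.1 and 16.9. The receptors followed, with Rarg at 13.8 and 16.5 and Rara at 12.3 and 21.6. Rdh11 had 9.66 and 10.1, and Dhrs3 had 5.93 and 8.44, still above Dhrs9 and Crabp2. Rara stood below Rdh10 and Rarg in the IRF8-OE library and above both in the vector library, and Dhrs9 stood below Crabp2 in the IRF8-OE library and above it in the vector library. Counting intervals of neighbours in the order overlapped for Rdh10 and Rarg, for Rarg and Rara, and for Crabp2 and Dhrs9 in the IRF8-OE library, and for Rdh10 and Rarg and for Rdh11 and Dhrs3 in the vector library.

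Of the enzymes that form retinal from retinol, Dhrs9 was lower and Rdh10 nearly level. Dhrs9 (ENSMUSG00000027068, mm10 chromosome 2, 69380445 to 69404533, plus strand) encodes a short-chain dehydrogenase that oxidises retinol and also some hydroxysteroids. Its transcripts gave 23 counts in the IRF8-OE library and 190 in the vector library, equal to 1.1 CPM (0.697 to 1.65) and 10.9 CPM (9.44 to 12.6). The ranges of the counting intervals do not overlap, and the ratio of 0.101 (0.0622 to 0.155) made Dhrs9 9.95-fold lower (6.44 to 16.1). It had the 21st lowest ratio of the 12468 measured genes. Among 1183 other genes within 1.5-fold of its mean level, whose median log2 ratio was 0.16, 5 had a ratio as low. Dhrs9 transcripts share 1.01% of their 32-base words with other genes, and no exon of another annotated gene overlaps its own.

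Rdh10 (ENSMUSG00000025921, chromosome 1, 16105774 to 16133734, plus strand) encodes the retinol dehydrogenase that supplies retinal to the mouse embryo. Its counts were 1311 in the IRF8-OE library and 1222 in the vector library, or 62.7 and 70.4 CPM. The ratio of 0.891 (0.823 to 0.964) lay below 1 beyond counting error and was 0.97 under scaling by total counts. Rdh10 was thus the more abundant of these enzymes in both libraries and carried the smaller difference.

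The members that reduce retinal back to retinol had smaller differences than Dhrs9. Dhrs3 (ENSMUSG00000066026, chromosome 4, 144892827 to 144928209, plus strand), a retinal reductase that is itself induced by retinoic acid, had 363 counts (17.4 CPM) in the IRF8-OE library and 429 (24.7 CPM) in the vector library. Its ratio was 0.703 (0.609 to 0.81), with an interval below 1 and no call by the size rule. Rdh11 (ENSMUSG00000066441, chromosome 12, 79174337 to 79192293, minus strand), a microsomal retinal reductase, had 698 counts (33.4 CPM) against 603 (34.7 CPM). Its ratio of 0.961 (0.861 to 1.07) did not differ from 1 beyond counting error, and it was 1.05 under scaling by total counts.

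**Figure D2:**
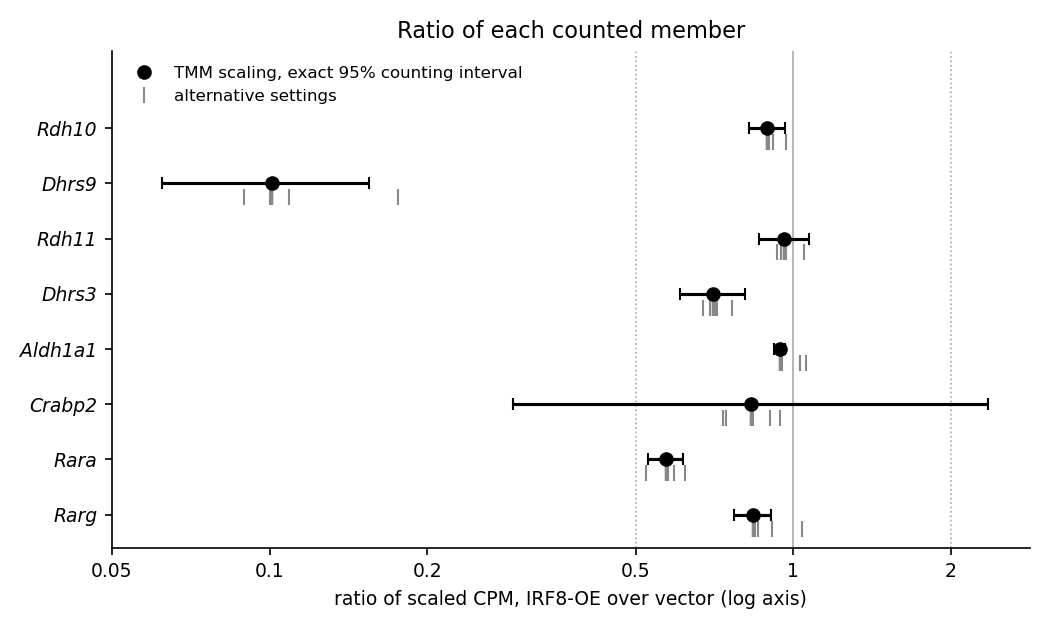
Ratio of scaled CPM, IRF8-OE over vector (log axis), for the 8 members with counts. Black points and bars give the TMM-scaled ratio with its exact 95% counting interval, grey ticks the alternative settings, dotted lines the 2-fold thresholds. Dhrs9 lies at 0.101 and Rara at 0.571, and the interval of Crabp2 spans 0.292 to 2.36.

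Shares within a library do not depend on how the libraries are scaled. Of the 2395 counts that Rdh10, Dhrs9, Rdh11 and Dhrs3 held together in the IRF8-OE library, Dhrs9 had 0.96% (exact 95% binomial interval 0.61 to 1.44), and of the 2444 in the vector library 7.77% (6.74 to 8.91). Rdh10 had 54.7% (52.7 to 56.7) in IRF8-OE and 50% (48 to 52) in vector. The share of Rdh11 was 29.1% (27.3 to 31) in IRF8-OE and 24.7% (23 to 26.4) in vector, while that of Dhrs3 was 15.2% (13.7 to 16.7) and 17.6% (16.1 to 19.1), with overlapping intervals. Dhrs9 was therefore lower relative to the other short-chain dehydrogenase members and not only to the whole library. Per length, the 4 genes summed to 30.9 CPM per kilobase in IRF8-OE and 38 in vector.

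Aldh1a1, which oxidises retinal to retinoic acid, held nearly all counts of the Aldh1a genes, at a similar level in both lines. Aldh1a1 (ENSMUSG00000053279, chromosome 19, 20492715 to 20643462, plus strand) gave 16034 counts in the IRF8-OE library and 14126 in the vector library, or 767 CPM (755 to 779) and 813 CPM (800 to 827). Per length it ranked 318th of the 12468 measured genes in IRF8-OE and 350th in vector. The ratio was 0.943 (0.921 to 0.964). Its direction depended on the scaling, with 1.03 under total counts, 1.06 with the trend on expression level removed and 1.03 with chromosome medians removed. Aldh1a1 held 98.7% of the counts of Aldh1a1, Aldh1a2, Aldh1a3 and Aldh1a7 in the IRF8-OE library and 98.8% in the vector library. Aldh1a7, a rodent paralog, had 216 and 165 counts, and since 11.6% of the 32-base words of Aldh1a1 also occur in Aldh1a7, a part of these reads may be split uncertainly between them. Aldh1a2 had 0 counts in both libraries, and Aldh1a3 had 0 in IRF8-OE and 3 in vector.

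Crabp2, whose protein carries retinoic acid to the receptors, was near the limit of detection. This gene (ENSMUSG00000004885, chromosome 3, 87948666 to 87953376, plus strand) gave 9 counts in each library, equal to 0.43 CPM in IRF8-OE and 0.518 CPM in vector, below the level at which genes were taken as measured. The ratio of 0.83 had an interval of 0.292 to 2.36, so a difference of 2-fold in either direction was not detectable at this depth.

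The receptors differed from one another in both level and ratio. Rara (ENSMUSG00000037992, chromosome 11, 98927818 to 98974942, plus strand), encodes RARα. It was counted 1125 times in the IRF8-OE library and 1635 times in the vector library, or 53.8 CPM (50.7 to 57) and 94.2 CPM (89.6 to 98.8). The intervals were well separated, and the ratio of 0.571 (0.529 to 0.617), 1.75-fold lower, was below the 2-fold needed for a call. Among 2525 other measured genes within 1.5-fold of its mean level, 90 had a ratio as low. Across all settings the ratio of Rara stayed between 0.523 and 0.622.

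Rarg (ENSMUSG00000001288, chromosome 15, 102234938 to 102257517, minus strand), encoding RARγ, had 1186 counts in the IRF8-OE library and 1177 in the vector library, or 56.7 and 67.8 CPM. The ratio of 0.837 (0.771 to 0.908) lay below 1, but was 1.04 once the median of its chromosome, a log2 ratio of -0.32, was removed. Of the 2311 receptor counts in the IRF8-OE library Rara held 48.7% (46.6 to 50.7) and Rarg 51.3% (49.3 to 53.4). Of the 2812 in the vector library Rara held 58.1% (56.3 to 60) and Rarg 41.9% (40 to 43.7). Rara was thus the larger part of the receptor counts in the vector line and about level with Rarg in the IRF8-OE line. The summed receptor counts had a ratio of 0.682 (0.646 to 0.721).

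Rarb (ENSMUSG00000017491, chromosome 14, 16430839 to 16819156, minus strand), encoding RARβ, had 0 counts in both libraries. The limit of 3 counts corresponds to 0.143 CPM in IRF8-OE and 0.173 CPM in vector, and no ratio can be given. Of its annotated exon bases 38.4% are overlapped by exons of other genes on the opposite strand, mostly Top2b, which had 2215 counts in IRF8-OE and 1378 in vector. In the longest Rarb transcript, 55.5% of the 32-base words also occur in Top2b on either strand. How the counting treated strand is not stated in any source used here, so reads in the overlap may have been left out, and the 0 holds for the remaining exon bases.

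**Figure D3:**
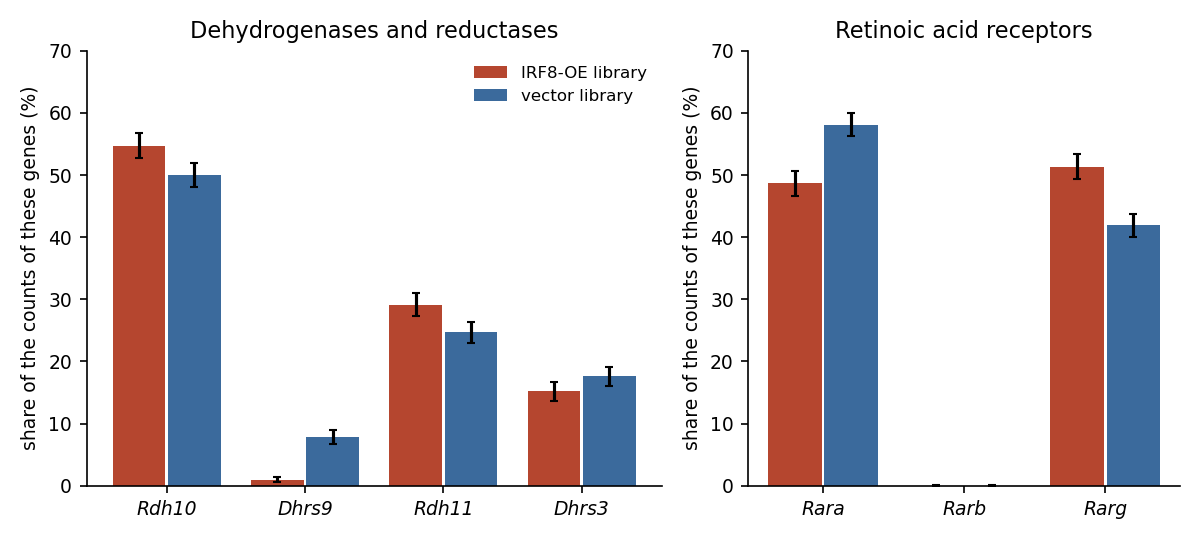
Share of counts (percent) held by each gene among the 4 short-chain dehydrogenase members (left) and among the receptors (right), in the IRF8-OE and vector libraries, with exact 95% binomial intervals. The Dhrs9 share is 0.96% in IRF8-OE and 7.77% in vector, and the Rara share 48.7% and 58.1%.

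The rest of the pathway was described with 8 lists by role holding 83 genes, 74 of them outside the 9. Of these 74, 39 were measured, 2 were called higher and 2 lower, with a median log2 ratio of -0.14, which was -0.01 under scaling by total counts. A further 22 of the 74 had 0 counts in both libraries. Over all measured genes 7.91% were called in either direction. Foxa1 and Sox9 lay in the list of genes known to respond to retinoic acid, and Cyp1a1 and Ncoa1 each in a list of its own.

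Of 13 genes of retinol storage, transport and uptake, 7 were measured and 0 called, and 3 had 0 counts in both libraries. Rbp4, the plasma carrier of retinol, had the highest level per length of all list genes, at 299 CPM per kilobase in IRF8-OE and 456 in vector, with a ratio of 0.656 (0.637 to 0.675). Stra6, the membrane receptor for retinol-binding protein, had 16086 counts in IRF8-OE and 11035 in vector, which is a ratio of 1.21 (1.18 to 1.24). Lrat, which esterifies retinol for storage, was among those at 0. In the list of retinol dehydrogenases and retinal reductases, 11 of 21 were measured, and Dhrs9 was the called gene. Adh5, the highest of them per length, had a ratio of 1.1 (1.05 to 1.15), and the median of the list was -0.17, or -0.04 under scaling by total counts.

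**Figure D4:**
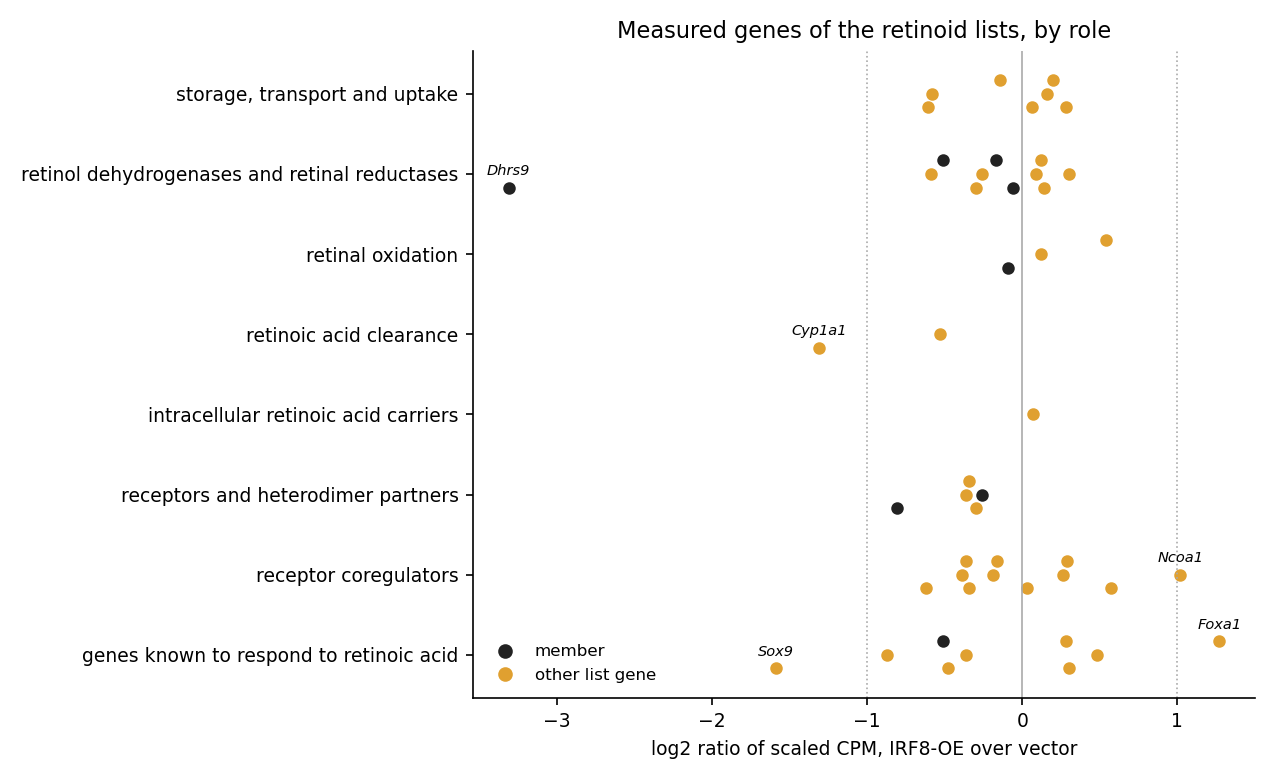
Log2 ratio of scaled CPM, IRF8-OE over vector, for each measured gene of the 8 lists, with the 9 genes described here in black, other list genes in orange and names on those past the 2-fold rule (dotted lines). Dhrs9 lies at -3.31, Sox9 at -1.59, Cyp1a1 at -1.31, Ncoa1 at 1.02 and Foxa1 at 1.27.

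Few genes of retinal oxidation and of retinoic acid clearance and binding were measured. In retinal oxidation 3 of 7 were measured, Aldh1a1 included, and 0 called. In clearance 2 of 5 were measured and 1 called. Of the 3 carriers 1 was measured and 0 called, beside 7.91% called of all measured genes. Aox1, an aldehyde oxidase that can act on retinal, had a ratio of 1.45 (1.26 to 1.67), Aldh8a1 had 2 counts in IRF8-OE and 0 in vector, and Aox3 had 1 and 0. The dedicated clearance genes Cyp26a1, Cyp26b1 and Cyp26c1 had 0 counts in both libraries. Cyp2s1, a cytochrome P450 that can also act on retinoic acid, had a ratio of 0.691 (0.661 to 0.722). Cyp1a1, best known as a target of the aryl hydrocarbon receptor, was called lower, with 828 counts in IRF8-OE and 1706 in vector and a ratio of 0.403 (0.37 to 0.438). Among the carriers, Crabp1 had 0 counts in both, and Fabp5, a fatty acid carrier that can bind retinoic acid, had 34.9 CPM per kilobase in IRF8-OE and 33.2 in vector.

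The measured receptors and partners had ratios below 1. In a list of 8, all 5 measured genes had an interval below 1, beside 32.7% of all measured genes, and 0 were called. The 5 include Rara and Rarg, which were chosen with their ratios known. The median log2 ratio of the 5 was -0.34. Under scaling by total counts all 5 again had an interval below 1, and the median was -0.22. With chromosome medians removed 4 of the 5 did, Rarg being the exception. Rxra had a ratio of 0.812 (0.744 to 0.886) and Rxrb, the highest of the list per length, 0.791 (0.747 to 0.838), while Rxrg had 0 counts in both. Of 11 coregulators, all measured, 6 had an interval below 1 and 4 above it, beside 32.7% and 31.1% of all measured genes. The coregulators had a median log2 ratio of -0.16, which was -0.04 under scaling by total counts and -0.01 with chromosome medians removed. The coactivator Ncoa1 was called higher, with 183 counts in IRF8-OE against 75 in vector and a ratio of 2.03 (1.54 to 2.69). That call was lost with log2(CPM + 1), with the expression trend removed, with chromosome medians removed and at a fold threshold of 4. Hdac3, a corepressor deacetylase and the highest of the list per length, had a ratio of 1.23 (1.16 to 1.3), and the acetyltransferase Ep300 0.65 (0.61 to 0.692).

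Genes known to respond to retinoic acid gave no common direction. Of 23 in this list, 9 were measured and 10 had 0 counts in both libraries, Rarb, Cyp26a1, Cyp26b1, Stra8, Hoxb1 and Cdx1 among them. Foxa1, a liver transcription factor, was called higher at 383 counts in IRF8-OE and 132 in vector, and Sox9, a progenitor transcription factor, lower at 1788 and 4465. Of the 9 measured, 3 had an interval above 1 and 5 below 1, beside 31.1% and 32.7% of all measured genes. The median of the 9 was -0.36, which was -0.23 under scaling by total counts and -0.01 with chromosome medians removed. Stra6, the highest of the list per length, and Dhrs3 lay on opposite sides of 1.

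Position on the chromosome was compared with the ratios of nearby genes. Within 2 Mb of Dhrs9, 20 other measured protein-coding genes had log2 ratios between -0.78 and 0.47, with a median of 0.20. Of these 20, 0 were called, beside 7.91% of all measured genes. The log2 ratio of Dhrs9 itself was -3.31. Within 2 Mb of Rara, 65 such genes had a median of -0.22, against 0.13 for the 940 of chromosome 11, and Rara was at -0.81. By median the genes around Rara lay on its side of 0, and those around Dhrs9 did not. A part of position in either ratio was not tested. For Rarg, the 51 genes within 2 Mb had a median of -0.01 and the chromosome -0.32. Around Rdh10, Rdh11, Aldh1a1 and Dhrs3 the medians were 0.03, 0.11, 0.01 and -0.16.

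**Figure D5:**
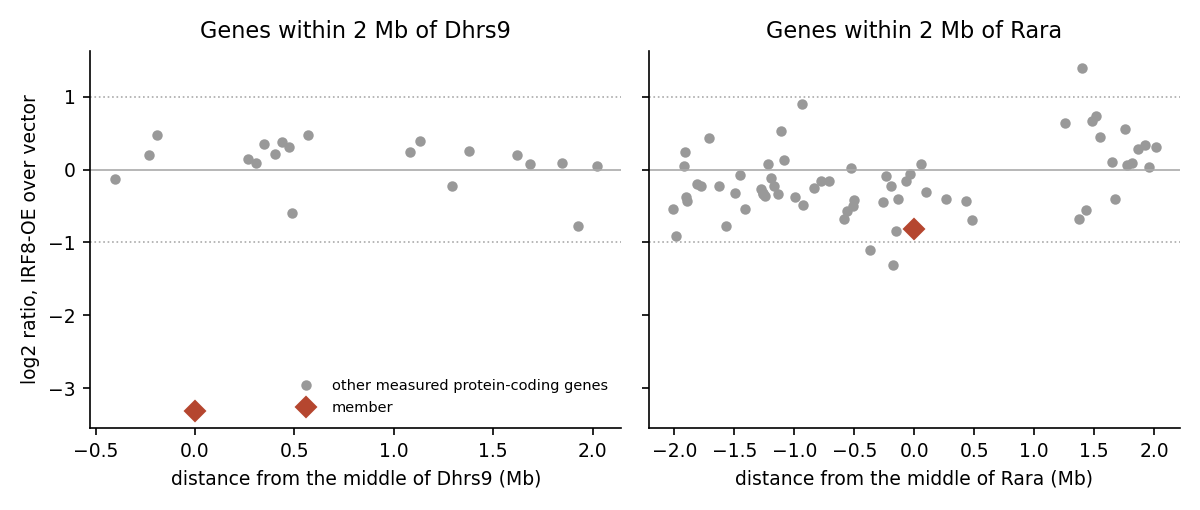
Log2 ratio, IRF8-OE over vector, of measured protein-coding genes within 2 Mb of Dhrs9 (left) and Rara (right), against distance in Mb from the middle of the gene, with the member as a diamond and the 2-fold thresholds dotted. Dhrs9 at -3.31 lies below all 20 neighbours, and Rara at -0.81 lies among its 65 neighbours, which range from -1.31 to 1.39.

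The labels were checked with Irf8 and with markers of cell types. Irf8 stood at 71.1 CPM in the IRF8-OE library and 58.2 CPM in the vector library, giving 1.22 as the ratio (1.13 to 1.32). This did not reach 2-fold, so Irf8 was not called higher, and counts per gene cannot separate a transgene from the endogenous transcript. Hepatocyte markers (5 of 8 measured) summed to 412 CPM in IRF8-OE and 859 CPM in vector. Alb, Trf and Afp were called lower, beside 3.64% of all measured genes called lower and 4.27% higher. The defining gene Ttr was at 0 and 2 counts. Apoa1, another unmeasured hepatocyte marker, had 15 counts in IRF8-OE and 3 in vector, and Serpina1a had 6 and 1. Markers of stellate cells, which store retinoids (4 of 11 measured), summed to 918 and 807 CPM, nearly all from Dcn, with Col1a1 and Rgs5 called higher and Lrat and Hgf at 0 in both. Myeloid markers (3 of 7 measured, 0 called) summed to 19.5 and 23.4 CPM with Adgre1 at 0. Endothelial markers (1 of 6) summed to 1.82 and 3.74 CPM with Tek at 0. Vwf, the measured endothelial marker, was called lower at 23 and 50 counts. Cholangiocyte markers (4 of 5) summed to 544 and 655 CPM, of which Spp1 gave 445 and 387. Of the 4 measured cholangiocyte markers Sox9 was called lower and 2 had an interval above 1, with a median log2 ratio of 0.24. The part of these differences in the values of the 9 genes was not tested. In bulk RNA fewer cells with a transcript and less of it per cell cannot be told apart.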

How the data were processed

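Values are read counts per gene as deposited by the authors, whole numbers with no normalization. HISAT2 2.0.5, featureCounts 1.5.0-p3 and build mm10 are named in the submitters' processing notes. Strand setting, annotation release and the treatment of multiply matching reads: not given in the sources used here. Coordinates and gene lengths are those of the deposited table, and exon overlaps and shared 32-base words come from GENCODE M21.

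TMM factors (1.04 for IRF8-OE, 0.958 for vector) were fitted on the whole table with R 4.3.3 and edgeR 4.0.16. Ratios have exact Clopper-Pearson intervals on the share of the counts of both libraries, levels exact Poisson intervals, and 0 counts the limit of 3 counts. Reads are not independent molecules, so intervals cover counting error only. The quasi-likelihood test of edgeR needs replicates and was left out. Named genes are the 9, every list gene past the size rule, the highest of each list per length, and every gene of oxidation and clearance. A few further list genes, among them Lrat, Crabp1 and Ep300, were named after their values were seen. A few pathway genes are not reported here and are not among the 83 list genes. Members and lists were chosen with earlier results of these data known. Intervals came from scipy 1.17.1 and the trend from statsmodels 0.14.6 under Python 3.11.15. Alternatives were total-count scaling, DESeq2 1.42.0 size factors, upper-quartile scaling, a filter at 5 CPM or none, thresholds at 1.5-fold and 4-fold, 99.9% intervals, a pseudocount of 1 in log2(CPM + 1), removal of a trend on expression or of chromosome medians, and protein-coding genes alone. Promoter windows were found for 7 of the 9 members, and protein sequences were not used here.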

Additional observations from a re-analysis of the deposited data

How the results depend on the processing

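Dhrs9 was called lower in the main setting and in all 12 alternatives, with a ratio between 0.0893 and 0.176, the higher value with log2(CPM + 1). Every setting used the same 23 counts in IRF8-OE and 190 in vector, so the alternatives give no independent support. At the 5 CPM filter Dhrs9 passed through its vector level of 10.9 CPM, against 1.1 CPM in IRF8-OE. At a fold threshold of 1.5 Rara joined it, making 2 members called lower. The cause of the shifts below was not tested except where the setting itself sets the count. Scaling by total counts gave ratios of 0.97 for Rdh10, 1.03 for Aldh1a1, 0.622 for Rara and 0.911 for Rarg. Removal of chromosome medians gave 1.03 for Aldh1a1, 0.523 for Rara and 1.04 for Rarg, and removal of the expression trend gave 1.06 for Aldh1a1. Of the list genes, 2 were called higher and 3 lower (the members included). These became 1 higher, without Ncoa1, with log2(CPM + 1), with the expression trend removed or with chromosome medians removed, 7 lower at 1.5-fold, and 0 higher and 1 lower at 4-fold. Over all measured genes 532 were called higher and 454 lower, against 873 and 800 with no filter, 221 and 266 at 5 CPM, 1302 and 1175 at 1.5-fold, 69 and 91 at 4-fold, and 275 and 300 with log2(CPM + 1). The part called higher was 54% of the calls, but 66.1% under total counts, 41.6% with the expression trend removed and 43.1% at 4-fold. Depth limits Crabp2 and Rarb, with 9 and 0 counts. No paired analysis was possible because each group has 1 library.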

Other observations

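Genes for other nuclear receptors lie near Rara and Rarb on the same chromosomes. Nr1d1, which encodes the clock repressor REV-ERBα and lies within 2 Mb of Rara, had 328 counts in the IRF8-OE library and 676 in the vector library, and was called lower at a ratio of 0.403 (0.352 to 0.46). Thra, the thyroid hormone receptor gene beside it, had a ratio of 0.854 (0.762 to 0.957) and was not called. Thrb, the other thyroid hormone receptor gene, lies within 2 Mb of Rarb and had 14 counts in IRF8-OE and 38 in vector, a ratio of 0.306 (0.153 to 0.578), and was called lower. Nr1d2, the paralog of Nr1d1, also lies within 2 Mb of Rarb, had 673 counts in IRF8-OE and 660 in vector, a ratio of 0.847 (0.759 to 0.944), and was not called. Near Rarg, the nuclear receptor gene Nr4a1 had a ratio of 0.524 (0.485 to 0.567) and was not called, the keratin gene Krt76 had 3 counts in IRF8-OE and 53 in vector, and Soat2, which esterifies cholesterol, had 15 counts in IRF8-OE and 130 in vector, a ratio of 0.0958 (0.0521 to 0.164). These genes were named after their values were seen. In the IRF8-OE library Krt76, Soat2 and Thrb were at 0.143, 0.717 and 0.669 CPM, so they passed the filter through the vector library. Other neighbours were called higher, Hap1 near Rara at a ratio of 2.63 (2.24 to 3.09) and Krt80 near Rarg at 2.35 (1.59 to 3.54). Within 2 Mb of Rara, 1 of 65 measured protein-coding genes was called higher and 2 lower. Near Rarb these were 0 and 1 of 10, and near Rarg 1 and 2 of 51. Of all measured genes 4.27% were called higher and 3.64% lower.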
